A study of Schmidtea mediterranea with 48 samples.

Results

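In planarians, 150 of the 26401 transcript contigs counted in both heads and tails were taken as tail-enriched, and their levels were followed through 5 weeks of nr4A RNAi. The contigs were chosen on control animals alone. They were those with the largest difference between the mean log2(CPM + 0.5), where CPM is a contig's count scaled to a common library total, of the 12 control tail libraries and that of the 12 control head libraries, among the 12343 contigs with a mean of at least 5 CPM in control tails. A contig is an assembled transcript, named here by its number in the reference assembly (dd_365, for example), with its isoforms summed, and 2 contig numbers were left out of the choice. Most of the 150 contigs carry no gene name in the sources used here and are given by number only.

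The nr4A(RNAi) animals received dsRNA targeting nr4A in their food, and the unc22(RNAi) animals received dsRNA for unc-22, a nematode gene used as the control target. All animals were Schmidtea mediterranea of the asexual strain CIW4, starved before they were cut, and heads were taken just behind the eyes while tails were the posterior tip behind the pharynx. Polyadenylated RNA was sequenced after 2, 3, 4 and 5 weeks of RNAi, with 3 libraries of pooled animals for each RNAi group, tissue and week, 48 libraries in all. The 24 tail libraries and the 24 head libraries were processed and tabulated separately, so tissue and processing cannot be told apart. In bulk tissue, fewer cells of a type and less RNA per cell also cannot be told apart.

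Planarians keep adult positional information in muscle, where position control genes are expressed in regional domains along the body. Posterior identity depends on Wnt signalling through beta-catenin, and several Wnt ligand genes are expressed in the tail. nr4A encodes a nuclear receptor transcription factor expressed in muscle, and these libraries were made to ask which transcripts differ at the ends of the body before gross anatomical change.

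Total counts on contigs were 13395084 to 42917781 in tails and 13800452 to 27490960 in heads. The contig of nr4A itself, dd_12229, averaged 14.6 ± 2.47 CPM in nr4A(RNAi) tails and 21.3 ± 2.51 CPM in unc22(RNAi) tails, and 17.5 ± 2.92 CPM in nr4A(RNAi) heads and 26.7 ± 1.39 CPM in unc22(RNAi) heads (SD, n = 12 each). It was lower over the 4 weeks in tails (log2 fold change -0.57, SE 0.08, adjusted p = 6.0e-05) and in heads (-0.65, SE 0.05, adjusted p = 2.8e-08; edgeR quasi-likelihood test, Benjamini-Hochberg adjustment). sFRP-1, an anterior Wnt inhibitor, had a median of 1.695 CPM in nr4A(RNAi) tails against 126 CPM in nr4A(RNAi) heads, and 2.07 CPM in unc22(RNAi) tails against 98.4 CPM in unc22(RNAi) heads, as the tissue labels say. In all, 5 libraries stood apart from the other 2 of their group, by a median deviation over 3 times that of their tissue. They were nr4A(RNAi) tail replicate 1 of week 2, and nr4A(RNAi) head replicates 2 of week 2, 2 of week 4, and 1 and 3 of week 5.

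The tail-enriched contigs spanned a wide range of levels. Their control tail minus head difference, the measure they were chosen on, ran between 2.24 and 8.74 on the log2 scale with a median of 2.84, and exceeded 4 for 21 contigs and 3 for 60. Their mean level in unc22(RNAi) tails lay between 5.40 and 2861 CPM with a median of 30.9 CPM, against a median of 3.44 CPM in unc22(RNAi) heads, where 27 averaged under 1 CPM. The last contigs inside the limit were dd_609 at 2.27, dd_158 at 2.24 and dd_636 at 2.24. The first ones outside were dd_8626 at 2.24, dd_11558 at 2.23 and dd_6803 at 2.23, so the limit cut through a continuous range. More than 1 isoform row was summed for 24 of the 150 contigs (16%) and for 2886 of the 12343 contigs past the CPM minimum (23.4%).

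The largest difference belonged to dd_365, which averaged 328 ± 30.0 CPM in unc22(RNAi) tails and 0.307 ± 0.306 CPM in unc22(RNAi) heads (SD, n = 12 each). dd_14391, dd_27, dd_4427 and dd_43 followed, with differences of 7.02, 6.89, 6.59 and 6.51. The highest levels in unc22(RNAi) tails were those of dd_91 at 2861 ± 781 CPM, dd_609 at 2237 ± 225 CPM and dd_131 at 1875 ± 450 CPM (SD, n = 12 each). CPM is not divided by transcript length, so these values rank reads and not molecules.

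The study's gene lists pair 7 of the contigs with a name. Wnt11-2 (dd_16209) encodes a secreted Wnt ligand and is a known posterior marker in planarians, and Frz-d (dd_11650) encodes a frizzled receptor, the class of membrane protein that binds Wnt ligands. GUCY1B2 (dd_12650) names a soluble guanylate cyclase subunit, PCSK1 (dd_8406) a prohormone convertase, which cuts peptide hormone precursors, and EXO1 (dd_14547) an exonuclease of DNA repair. The other 2 are dd_4427, a hypothetical protein, and dd_13065, listed as tr5_12233. Of the study's 173 contigs enriched at the anterior pole 6 are among the 150, and of its 197 posterior pole contigs 1 is (dd_8406). The 2 contig numbers left out of the choice could not be counted in these overlaps, whatever their tail enrichment, so the overlaps may be understated. None of the collagen, contractile, neuronal, ciliary or epidermal progenitor marker contigs is among the 150.

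The tail enrichment was present in nr4A(RNAi) animals as well, whose libraries took no part in the choice. In a fit of all 48 libraries, 150 of 150 contigs were higher in nr4A(RNAi) tails than in nr4A(RNAi) heads, where 33.4% of the 20529 contigs tested were called higher (edgeR quasi-likelihood test, adjusted p under 0.05). This count was largely set by the choice, which took contigs with a control difference of at least 2.24. Heads and tails were processed separately in both RNAi groups, and the unc22(RNAi) libraries of the choice share the fit. The count is therefore no separate test of the enrichment. The tail minus head difference in nr4A(RNAi) libraries ran between 1.93 and 8.83 with a median of 2.94, and was smaller than in unc22(RNAi) libraries for 49 contigs. Across the 150 contigs the differences in nr4A(RNAi) and unc22(RNAi) libraries correlated at Pearson r = 0.96, which describes contigs of the same libraries and not independent replicates.

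**Figure D1:**
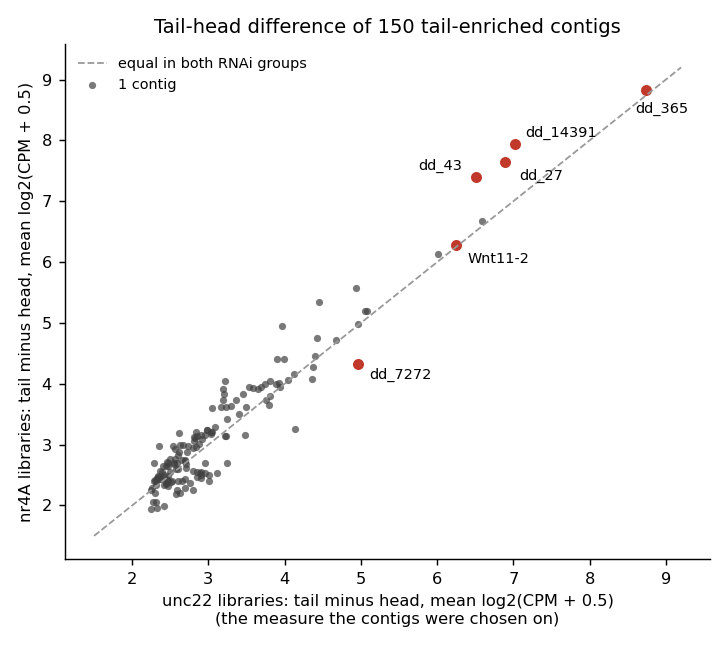
Tail minus head difference of each of the 150 contigs in nr4A(RNAi) libraries (y axis) against unc22(RNAi) libraries (x axis, the measure of the choice), both as mean log2(CPM + 0.5) over 12 tail minus 12 head libraries. Points follow the dashed line of equality, with dd_7272 under it (4.32 against 4.96) and dd_14391, dd_27 and dd_43 above it (7.95, 7.65 and 7.40 against 7.02, 6.89 and 6.51).

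The contigs took 2.28 to 2.89% of all counts in nr4A(RNAi) tails (median 2.68%) and 2.24 to 3.19% in unc22(RNAi) tails (median 2.46%). In heads they took 0.217 to 0.358% under nr4A(RNAi) and 0.178 to 0.384% under unc22(RNAi), so the ranges overlapped in both tissues. The spread between replicates was wide in these contigs. The median SD within a week, in log2 units, was 0.23 for the 150 contigs and 0.16 for all contigs of at least 5 CPM in nr4A(RNAi) tails, and 0.18 and 0.11 in unc22(RNAi) tails. In heads it was 0.29 and 0.17 under nr4A(RNAi), and 0.25 and 0.076 under unc22(RNAi).

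In tails few contigs passed the test of nr4A(RNAi) against unc22(RNAi) until week 5. At week 2, 0 of the 150 contigs passed an adjusted p of 0.05 by edgeR's quasi-likelihood test, with 6 at an unadjusted p under 0.05 (4% of the 150, against 1.31% of all contigs tested) and 0 by DESeq2, and 0.0% of the 18207 contigs tested passed. At week 3, 2 contigs passed, against 0.144% of all contigs tested: dd_7272 was lower and dd_14391 higher. At week 4, 3 passed, against 0.407% of all contigs tested: dd_7272 was lower, and dd_14391 and dd_1491 were higher. At week 5, 32 passed, 20 lower and 12 higher, which is 21.3% of the 150 against 9.89% of the 18357 contigs tested. Among all contigs 5.63% were called lower and 4.25% higher. The median log2 fold change of the 150 contigs was 0.10 at week 2, -0.08 at week 3, 0.04 at week 4 and -0.10 at week 5, with the median of all contigs within 0.01 of 0. The spread between replicates, as edgeR's common coefficient of variation, was 23.6, 11.7, 10.5 and 6.66% at weeks 2, 3, 4 and 5. The weekly counts thus rest on unlike spreads. With 1 estimate of the spread for the 24 tail libraries 1, 2, 2 and 8 contigs passed, against 0.0663, 0.26, 0.556 and 1.7% of all contigs.

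**Figure D2:**
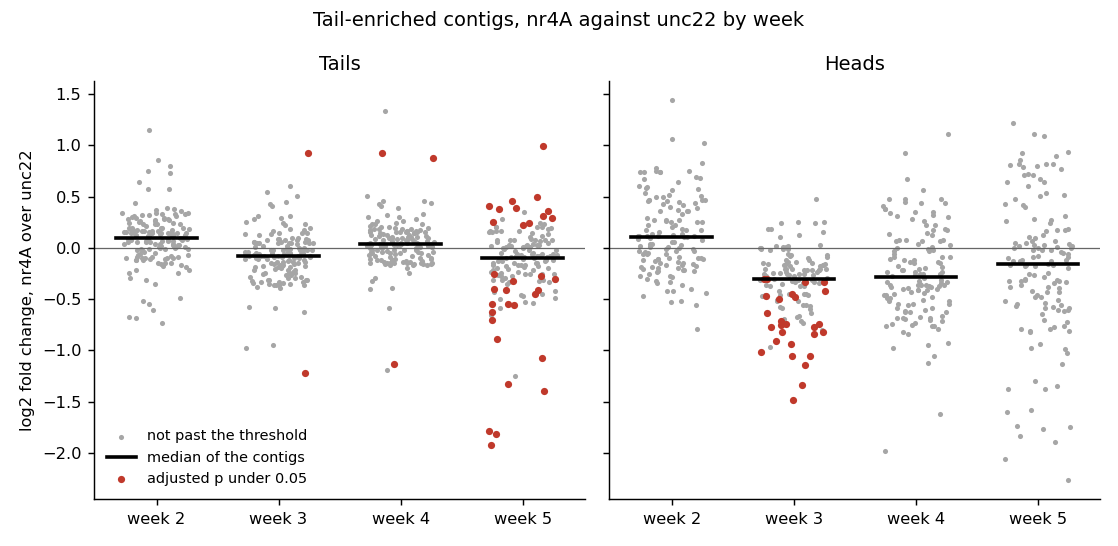
Log2 fold change of each tail-enriched contig, nr4A(RNAi) over unc22(RNAi), in tails (left) and heads (right) by week of RNAi, with contigs past an adjusted p of 0.05 in red and the median as a black bar. In tails 32 contigs passed at week 5 in both directions, and in heads the 27 that passed were all at week 3 and all lower.

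The contig with the largest fall was dd_7272. It had 20.5, 17.4 and 14.5 CPM in nr4A(RNAi) tails at week 2, against 20, 25.03 and 20.6 CPM in unc22(RNAi) tails, and the groups overlapped. At week 3 it had 15.3, 13.2 and 13.7 CPM in nr4A(RNAi) tails and 34.3, 32.5 and 29.2 CPM in unc22(RNAi) tails. At week 4 the values were 12.7, 17.2 and 14.7 CPM in nr4A(RNAi) tails and 37.4, 30.2 and 29.7 CPM in unc22(RNAi) tails. From week 3 on, every nr4A(RNAi) library lay below every unc22(RNAi) library. At week 5 it had 12.9, 12.95 and 11.4 CPM in nr4A(RNAi) tails, against 46.1, 40.4 and 49.4 CPM in unc22(RNAi) tails. The log2 fold changes were -0.29 at week 2, -1.22 at week 3, -1.13 at week 4 and -1.92 at week 5 (SE 0.09, adjusted p = 6.1e-08 at week 5). All 3 unc22(RNAi) tails of week 5 lay above the 3 of week 2, while the nr4A(RNAi) tails of all weeks lay between 11.4 and 20.5 CPM. The call at week 3 was lost without nr4A(RNAi) replicate 2 or 3 (highest adjusted p 0.12, lowest 3.9e-15 over 10 alternatives).

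The opposite pattern was that of dd_14391, the contig with the second rank in tail enrichment. It had 85.9, 124 and 139 CPM in nr4A(RNAi) tails at week 2 and 76.6, 73.6 and 76.1 CPM in unc22(RNAi) tails. At week 3 it had 152, 142 and 155 CPM in nr4A(RNAi) tails and 64.3, 86.8 and 80.3 CPM in unc22(RNAi) tails. At week 4 the values were 169, 183 and 174 CPM in nr4A(RNAi) tails and 80.3, 99 and 96.6 CPM in unc22(RNAi) tails. No unc22(RNAi) tail reached any nr4A(RNAi) tail of its own week. At week 5 it had 174, 183 and 194 CPM in nr4A(RNAi) tails and 83.3, 98.5 and 83.4 CPM in unc22(RNAi) tails, a log2 fold change of 0.99 (SE 0.07, adjusted p = 2.3e-06). The weekly changes before were 0.64, 0.93 and 0.93, and the difference between weeks 5 and 2 was 0.34 (SE 0.15, adjusted p = 0.54). At week 3 the call was lost without any one of the nr4A(RNAi) replicates or without unc22(RNAi) replicate 3 (highest adjusted p 0.15, lowest 7.3e-13 over 10 alternatives). In heads dd_14391 stayed at or under 0.317 CPM in nr4A(RNAi) libraries and 0.288 CPM in unc22(RNAi) libraries, too low to be tested.

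In tails dd_79 and dd_33 passed the test at week 5 and at no other week. dd_79 had 74.5, 121 and 86.8 CPM in nr4A(RNAi) tails at week 5, against 323, 230 and 392.3 CPM in unc22(RNAi) tails (log2 fold change -1.82, SE 0.18, adjusted p = 4.4e-05). dd_33 had 15.1, 24 and 18.7 CPM in nr4A(RNAi) tails at week 5, against 67.3, 44.7 and 76.2 CPM in unc22(RNAi) tails (-1.78, SE 0.18, adjusted p = 5.4e-05). The nr4A(RNAi) values of week 5 lay within the range of the earlier weeks, and it was the unc22(RNAi) tails of week 5 that stood above it. In weeks 2 to 4 dd_79 lay between 58.8 and 125 CPM in nr4A(RNAi) tails and between 71.9 and 140 CPM in unc22(RNAi) tails, and the groups overlapped each week. The pair moved together across the 24 tail libraries (r = 0.98) and the 24 head libraries (r = 0.92), and whether these contigs share sequence was not analysed here.

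**Figure D3:**
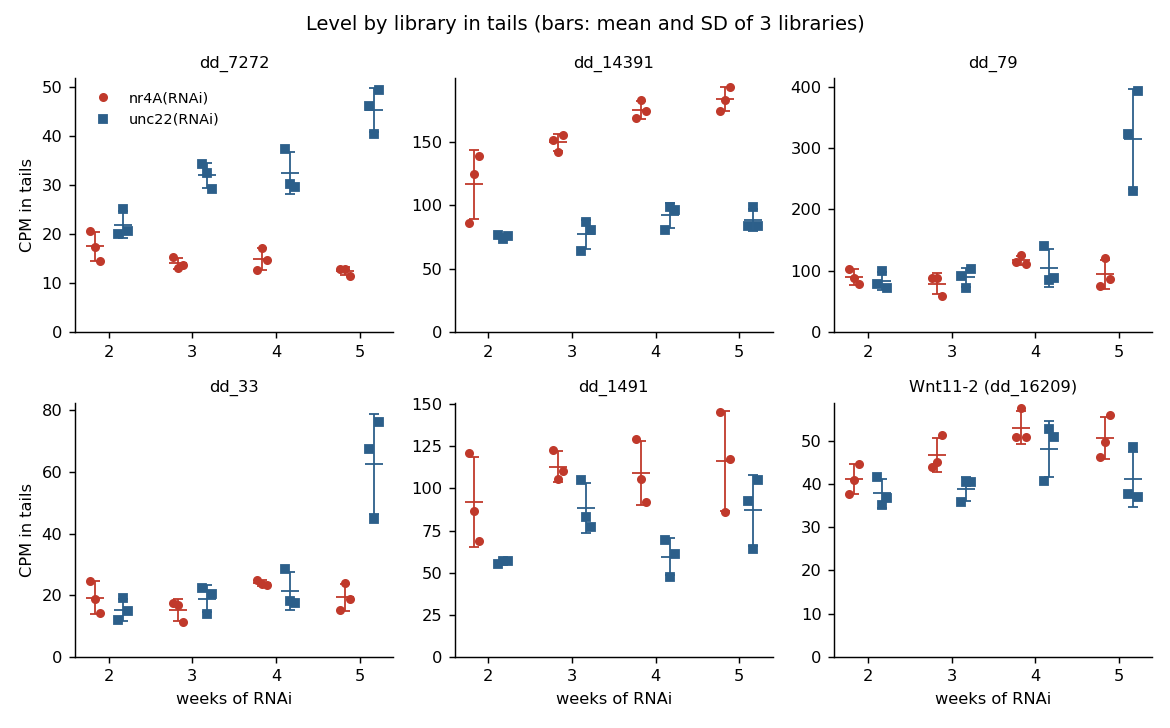
CPM in each tail library of 6 tail-enriched contigs at 2, 3, 4 and 5 weeks, nr4A(RNAi) in red circles and unc22(RNAi) in blue squares, with the mean and SD of 3 libraries. dd_7272 lies lower under nr4A(RNAi) from week 3 on, dd_14391 higher at every week, and dd_79 and dd_33 differ at week 5, where the unc22(RNAi) libraries reach 392.3 and 76.2 CPM.

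Among the other contigs called lower in tails at week 5 were dd_636, just inside the limit of the choice, and dd_2786. dd_636 had 730, 709 and 845 CPM in nr4A(RNAi) tails and 1567, 1019 and 1460 CPM in unc22(RNAi) tails (-0.89, SE 0.13, adjusted p = 0.00088). dd_2786 had 224, 256 and 234 CPM in nr4A(RNAi) tails and 317, 419 and 377 CPM in unc22(RNAi) tails (-0.71, SE 0.09, adjusted p = 0.00029). Neither contig overlapped between the groups at week 5. dd_2394, dd_58 and dd_574, chosen after their values were seen, changed by -1.39, -1.33 and -1.07. For dd_574 the direction was not steady, with log2 fold changes of 1.15 and 1.34 at weeks 2 and 4 that did not pass the test.

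dd_12317 had 65.1, 70.2 and 66.8 CPM in nr4A(RNAi) tails at week 5 and 50.8, 54.9 and 50.5 CPM in unc22(RNAi) tails (0.31, SE 0.06, adjusted p = 0.0052). The 12 contigs called higher at week 5 changed by 0.22 to 0.99, so all but dd_14391 changed by 0.50 or less, whereas the 20 called lower changed by -0.25 to -1.92. The count at week 5 depended on single libraries. It was 11 without unc22(RNAi) replicate 1 (4.28% of all contigs called), 15 without nr4A(RNAi) replicate 3 (5.42%), 17 without unc22(RNAi) replicate 3 (5.35%) and 51 without nr4A(RNAi) replicate 1 (10.8%). At week 5 in tails the deviations of same-numbered libraries correlated weakly (r = 0.13, 0.39 and 0.16), and replicate 1 did not correlate best with its own number. With the replicate number as a block the count was 61, 43 lower and 18 higher, against 14.5% of all contigs. It was 8, with 1.7% of all contigs called, when the 24 tail libraries shared 1 estimate of the spread. With the 150 contigs chosen without the unc22(RNAi) libraries of week 5, 18 were lower and 12 higher.

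Over the mean of the 4 weeks, 11 of the 150 contigs passed in tails, 5 lower and 6 higher (7.33% against 3.08% of the 19601 contigs tested, 1.87% lower and 1.21% higher). The lower contigs were dd_7272 (-1.14, SE 0.08, adjusted p = 3.0e-09), dd_79 (-0.43), dd_2786 (-0.36), dd_636 (-0.33) and dd_3708 (-0.28). The higher ones were dd_14391 (0.87, SE 0.05, adjusted p = 1.0e-09), dd_1491 (0.57), dd_13290 (0.25, named after its value was seen), dd_13065 (0.19), Wnt11-2 (0.19) and dd_12317 (0.18). dd_3708 averaged 41.3 ± 4.93 CPM in nr4A(RNAi) tails and 49.3 ± 4.45 CPM in unc22(RNAi) tails (SD, n = 12 each). dd_1491 averaged 108 ± 21.6 CPM in nr4A(RNAi) tails and 72.8 ± 19.8 CPM in unc22(RNAi) tails (SD, n = 12 each), and it did not overlap at week 4, with 130, 105 and 92.0 CPM in nr4A(RNAi) tails and 69.6, 47.7 and 61.1 CPM in unc22(RNAi) tails. dd_13065 averaged 114 ± 9.32 CPM in nr4A(RNAi) tails and 98.2 ± 7.52 CPM in unc22(RNAi) tails (SD, n = 12 each).

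The 11 calls were not equally firm. dd_7272 and dd_14391 passed in 10 of 10 alternatives each (other size factors, no filter, DESeq2, a replicate block, and each replicate of either group left out of all weeks), with highest adjusted p of 6.5e-06 and 3.9e-06. dd_1491 was lost without replicate 2 of unc22(RNAi) in every week (highest adjusted p 0.087), and dd_79, dd_2786, dd_636, dd_3708, dd_13065, Wnt11-2 and dd_12317 were each lost in 4 to 7 of the 10. For dd_13290, named after its value was seen, the alternatives are not given. The count was 4 or 5 without replicate 2 or 3 of nr4A(RNAi) or without any replicate of unc22(RNAi), with 1.53 to 1.91% of all contigs called, and 35 without replicate 1 of nr4A(RNAi), with 9.92% called. It was 22, with 7.6% called, without the library of week 2 that stood apart, an alternative chosen after seeing the data.

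Wnt11-2 was among the contigs with small differences. It averaged 47.9 ± 5.86 CPM in nr4A(RNAi) tails and 41.4 ± 5.99 CPM in unc22(RNAi) tails (SD, n = 12 each). Its weekly log2 fold changes were 0.15, 0.24, 0.14 and 0.24, none of which passed the test, and the mean of the weeks was 0.19 (SE 0.05, adjusted p = 0.047). At week 5 it had 46.1, 49.7 and 55.9 CPM in nr4A(RNAi) tails and 37.6, 48.4 and 37.0 CPM in unc22(RNAi) tails, and the groups overlapped. The call over the 4 weeks was lost in 7 of 10 alternatives, with adjusted p between 0.02 and 0.26; these included the fits without nr4A(RNAi) replicate 2 or 3 and without unc22(RNAi) replicate 1 or 3. In heads it reached at most 0.316 CPM in nr4A(RNAi) libraries and 0.227 CPM in unc22(RNAi) libraries, too low to be tested.

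The other named contigs did not pass in tails over the 4 weeks. Frz-d averaged 167 ± 17.9 CPM in nr4A(RNAi) tails and 158 ± 16.5 CPM in unc22(RNAi) tails (0.07, SE 0.04). GUCY1B2 averaged 31.5 ± 2.77 CPM in nr4A(RNAi) tails and 29.2 ± 2.56 CPM in unc22(RNAi) tails (0.09, SE 0.04). PCSK1 averaged 10.6 ± 1.63 CPM in nr4A(RNAi) tails and 10.5 ± 2.82 CPM in unc22(RNAi) tails (0.01, SE 0.11). These SDs are over 12 libraries each, and each difference was smaller than the SD of its groups. EXO1, summed over 11 isoform rows, averaged 7.16 ± 1.12 CPM in nr4A(RNAi) tails and 6.80 ± 0.757 CPM in unc22(RNAi) tails (0.06, SE 0.08), and dd_4427 averaged 69.6 ± 7.86 CPM in nr4A(RNAi) tails and 65.6 ± 5.51 CPM in unc22(RNAi) tails (0.07, SE 0.06). The contig of highest rank, dd_365, averaged 328 ± 56.1 CPM in nr4A(RNAi) tails and 328 ± 30.0 CPM in unc22(RNAi) tails (-0.02, SE 0.09). dd_158, also at the limit, ranged between 4.43 and 33.2 CPM in nr4A(RNAi) tails and between 9.40 and 21.4 CPM in unc22(RNAi) tails (-0.20, SE 0.23).

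The Wnt pathway was followed through 17 contigs, with Wnt11-2 as the only ligand beside receptors, secreted inhibitors and intracellular members. Other Wnt ligand genes were not followed. Of the 17 contigs, only Wnt11-2 and Frz-d are tail-enriched contigs. In tails 16 were tested, with a median log2 fold change of -0.03 over the 4 weeks, against 0.00 for all contigs. Of them 0 were called lower (1.87% of all contigs) and 2 higher (1.21% of all contigs). The 2 were Wnt11-2 and notum, an extracellular Wnt inhibitor at the anterior pole, which averaged 2.49 ± 0.366 CPM in nr4A(RNAi) tails and 1.71 ± 0.293 CPM in unc22(RNAi) tails (SD, n = 12 each; 0.52, SE 0.10, adjusted p = 0.0049). In heads 16 were tested, with a median of 0.05 over the 4 weeks. Of them 1 was called lower (5.22% of all contigs) and 6 higher (7.83% of all contigs). The higher ones were notum, sFRP-1, ryk and the frizzled contigs fz5/8-4, fzd-5/8-3 and fzd-5/8-2. Each had a higher mean CPM in unc22(RNAi) heads than in unc22(RNAi) tails, and none is a tail-enriched contig.

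In heads, where these contigs are scarce, 135 to 137 of the 150 passed the filter on low counts in a week, and 11 were not tested in the mean over the weeks. A contig that passed had to have counts in heads, so the tested set leaves out those nearest to absent there. At week 3, 27 of 136 passed, all of them lower, which is 19.9% against 3.65% of the 18376 contigs tested called lower and 5.25% called in either direction. The median log2 fold change of the 136 was -0.30, against 0.01 for all contigs, and 119 of the 136 (87.5%) were negative, against 46.8% of all contigs tested. With the contigs chosen without the unc22(RNAi) libraries of week 3, 27 were again lower.

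The call of single contigs at week 3 rested on the fit used. The count was 16 without unc22(RNAi) replicate 1, with 2.73% of all contigs called in either direction. It was 4 by DESeq2, with 4.04% of all contigs called, and 0 when the 24 head libraries shared 1 estimate of the spread, with 0.245% called. DESeq2 gave no adjusted p to some of the 27, dd_79, dd_43 and dd_3708 among them. Its count of 4 therefore does not mean that all the others were assessed and did not pass. In the same heads 8 of 12 collagen contigs, 3 of 9 contractile contigs and the 1 epidermal progenitor contig were lower at week 3, and none was higher. Of the study's contigs for nr4A-positive muscle 573 were tested, with 37 lower and 10 higher at week 3 and a median log2 fold change of -0.01, and 2 of them are tail-enriched contigs. The CPM of the collagens, summed within each of 12 libraries, was 7232 to 12450 CPM in nr4A(RNAi) heads and 10681 to 13825 CPM in unc22(RNAi) heads, and that of the contractile contigs 7351 to 10060 CPM in nr4A(RNAi) heads and 9953 to 12251 CPM in unc22(RNAi) heads. The part of these muscle transcripts in the result was not tested.

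dd_79 had the smallest adjusted p of the named contigs in heads at week 3, with 7.71, 7.85 and 5.82 CPM in nr4A(RNAi) heads and 12.4, 13.9 and 13.4 CPM in unc22(RNAi) heads (-0.93, SE 0.12, adjusted p = 4.9e-05). dd_43 had 2.98, 3.76 and 3.58 CPM in nr4A(RNAi) heads and 7.93, 5.84 and 7.21 CPM in unc22(RNAi) heads (-1.05, SE 0.15, adjusted p = 0.00029). dd_3708 had 4.198, 3.98 and 4.197 CPM in nr4A(RNAi) heads and 7.48, 6.75 and 6.05 CPM in unc22(RNAi) heads (-0.74, SE 0.14, adjusted p = 0.0023). None of the 3 overlapped between the groups. Each passed in 9 of 10 alternatives of the weekly fit, and the remaining one, DESeq2, gave no adjusted p for them. None passed when the 24 head libraries shared 1 estimate of the spread.

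At weeks 2, 4 and 5 no contig passed in heads by edgeR's quasi-likelihood test. At week 2 this was 0 of 135, with 16 at an unadjusted p under 0.05 against 2.84% of all contigs, 0 by DESeq2 against 0.113%, and 0.0% of all contigs called. At week 4 it was 0 of 136, with 16 at an unadjusted p under 0.05 against 7.86% of all contigs, 4 by DESeq2 against 0.784%, and 0.049% of all contigs called. At week 5 it was 0 of 137, with 36 at an unadjusted p under 0.05 against 15.8% of all contigs, 12 by DESeq2 against 4.5%, and 0.0111% of all contigs called. The median log2 fold changes at weeks 2, 4 and 5 were 0.11, -0.29 and -0.16. Negative were 40.7, 72.1 and 62.8% of the contigs, against 50.1, 48.4 and 47.9% of all contigs tested. The common coefficient of variation in heads was 12.6, 14.9 and 27.5% at weeks 2, 4 and 5, and 4.73% at week 3. Calls in separate weeks thus rest on unlike spreads. Without nr4A(RNAi) replicate 3, which stood apart, 60 passed at week 5, 34 lower and 26 higher, while 61.0% of all contigs did, and that fit rests on nr4A(RNAi) replicates 1 and 2, of which replicate 1 also stood apart.

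Over the mean of the 4 weeks in heads, 33 of 139 contigs passed, 30 lower and 3 higher, which is 23.7% against 13.1% of the 19606 contigs tested. Among all contigs tested 5.22% were called lower and 7.83% higher, and the median of the 139 was -0.17, against -0.01 for all. The 3 higher contigs were dd_1491 (0.83, SE 0.15, adjusted p = 0.0010), dd_71 (0.55, SE 0.16, adjusted p = 0.033) and dd_13065 (0.31, SE 0.09, adjusted p = 0.022). dd_1491 and dd_13065 were called higher in both, and in heads dd_1491 averaged 20.4 ± 7.84 CPM under nr4A(RNAi) and 11.2 ± 3.53 CPM under unc22(RNAi) (SD, n = 12 each). dd_71 averaged 48.5 ± 23.4 CPM in nr4A(RNAi) heads and 31.8 ± 10.3 CPM in unc22(RNAi) heads (SD, n = 12 each). Heads and tails have no library in common, but their pools may come from the same animals. A call in both tissues is therefore not shown to be independent.

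Among the contigs called lower in heads were dd_33 (-0.80, adjusted p = 0.011) and dd_79 (-0.63, adjusted p = 0.0085; edgeR quasi-likelihood test). Each of these calls was lost in 1 of 10 alternatives. dd_33 also passed in heads at week 3 (-1.05, adjusted p = 0.0098), a call lost in 2 of 10. Also lower in heads were the rare dd_27 and dd_43, and the abundant dd_91. dd_43 averaged 3.51 ± 1.93 CPM in nr4A(RNAi) heads and 6.38 ± 2.03 CPM in unc22(RNAi) heads (-1.02, SE 0.18, adjusted p = 0.00085). dd_27 averaged 2.83 ± 1.60 CPM in nr4A(RNAi) heads and 4.79 ± 1.22 CPM in unc22(RNAi) heads (-0.97, SE 0.18, adjusted p = 0.0014). In tails neither passed over the 4 weeks, with -0.05 for dd_27 and -0.01 for dd_43. Both were called lower in tails at week 5, with -0.45 for dd_27 (adjusted p = 0.036) and -0.40 for dd_43 (adjusted p = 0.044), and these calls were lost in 5 and 6 of 10 alternatives. This pair moved together over 24 libraries of a tissue, with r = 0.99 in tails and 0.96 in heads. dd_91 averaged 64.3 ± 21.8 CPM in nr4A(RNAi) heads and 92.1 ± 18.2 CPM in unc22(RNAi) heads (-0.58, SE 0.13, adjusted p = 0.0054), against 2999 ± 709 CPM in nr4A(RNAi) tails and 2861 ± 781 CPM in unc22(RNAi) tails (0.05, SE 0.09). All SDs are over 12 libraries.

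dd_5956 averaged 2.29 ± 0.688 CPM in nr4A(RNAi) heads and 3.67 ± 0.556 CPM in unc22(RNAi) heads (-0.75, SE 0.12, adjusted p = 0.00030). dd_3708 averaged 4.33 ± 0.395 CPM in nr4A(RNAi) heads and 6.54 ± 0.947 CPM in unc22(RNAi) heads (-0.63, SE 0.08, adjusted p = 4.4e-05). dd_7272, at 0.261 ± 0.131 CPM in nr4A(RNAi) heads and 0.550 ± 0.202 CPM in unc22(RNAi) heads, was called lower (-1.05, SE 0.24, adjusted p = 0.0064). At this level it was near the filter on low counts, which its unc22(RNAi) values could meet alone. The head value of dd_7272 therefore adds no support to its fall in tails. In heads it also lacked a tested value of the same sign in all 4 weeks. The calls of dd_43, dd_27, dd_91, dd_5956, dd_3708 and dd_1491 were kept in 10 of 10 alternatives. The call of dd_7272 was lost without replicate 1 or 2 of unc22(RNAi) (highest adjusted p 0.07, lowest 0.0012), and 1 of the 10 alternatives gave it no adjusted p. That of dd_13065 was lost in 5 of 10, without replicate 1 or 2 of either group among them (adjusted p 0.0039 to 0.21). For dd_71 the alternatives are not given.

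The count over the 4 weeks in heads was 13, 15 and 18 without replicate 1, 2 and 3 of unc22(RNAi), with 4.91, 5.07 and 5.18% of all contigs called. It was 19 without replicate 1 of nr4A(RNAi), with 8.32% called, and 49 without replicate 3 of nr4A(RNAi), with 49.9% called. Without the 4 head libraries that stood apart it was 52, with 34.4% called. Over the 4 weeks 10 of 12 collagen contigs and 4 of 9 contractile contigs were lower in heads and 3 of 5 neuronal contigs were higher, whereas in tails 5 of 12, 1 of 9 and 1 of 5 passed in those directions. The part of these markers in the result was not tested.

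**Figure D4:**
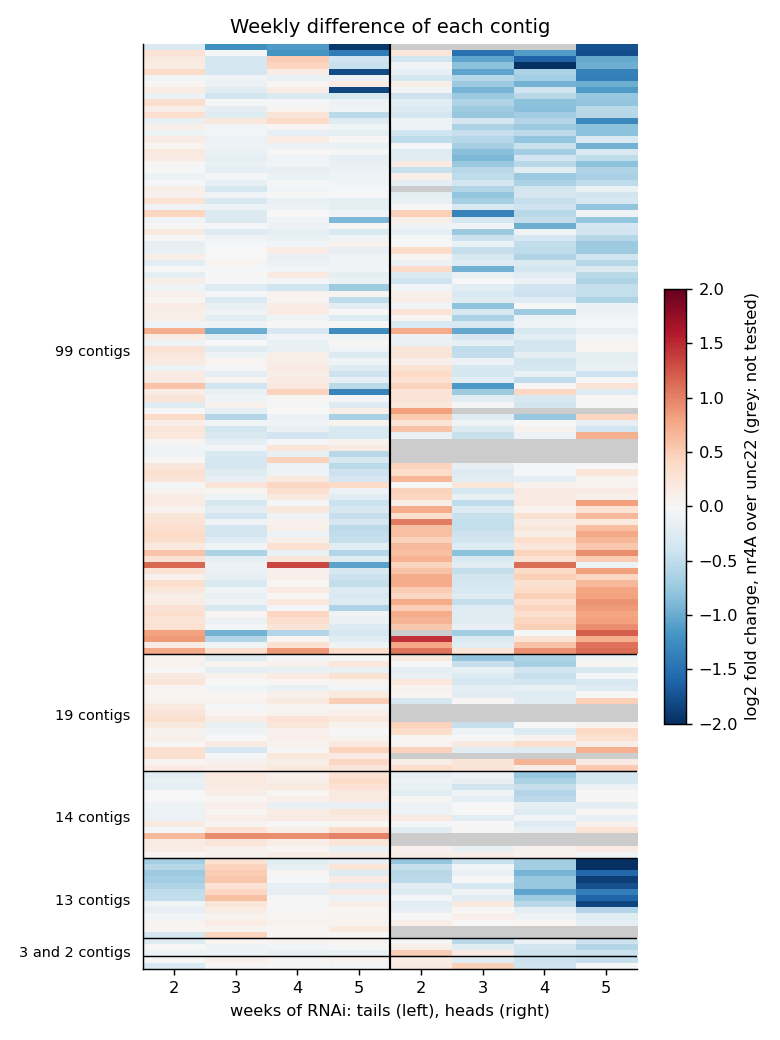
Log2 fold change of each tail-enriched contig, nr4A(RNAi) over unc22(RNAi), by week in tails (left) and heads (right), with red for higher, blue for lower and grey for not tested, and contigs ordered by group and by their mean change in heads. Colours end at 2 on either side, and the block of 99 contigs is mostly blue in heads at week 3, where 91 of its 93 tested contigs were negative.

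The change between weeks 2 and 5 was tested directly. In tails 3 contigs had a lower week 5 difference than week 2 difference, against 0.0561% of all contigs called: dd_33, dd_79 and dd_7272. In heads 1 did, against 0.27% of all contigs called: dd_659, with 54.5, 57.6 and 60.0 CPM in nr4A(RNAi) heads at week 5 and 96.6, 107 and 87.3 CPM in unc22(RNAi) heads. At week 2 dd_659 had 93.8, 74.0 and 86.9 CPM in nr4A(RNAi) heads and 78.5, 75.4 and 97.2 CPM in unc22(RNAi) heads, and the groups overlapped. The tail count was 0 to 4 when a replicate was left out of every week: the calls of dd_33 and dd_79 were lost without replicate 1, 2 or 3 of nr4A(RNAi) and without replicate 1 or 3 of unc22(RNAi), and that of dd_7272 without replicate 3 of unc22(RNAi). The call of dd_659 was lost without replicate 1 of nr4A(RNAi), without replicate 1 or 2 of unc22(RNAi) and with the replicate block (highest adjusted p 0.23, lowest 1.0e-05 over 10 alternatives). The head count was 12 without replicate 3 of nr4A(RNAi), with 11.3% of all contigs called, and 17 without the head libraries that stood apart, with 41.2% called.

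The contigs did not vary as 1 set. Grouped by the correlation of their levels over the 12 unc22(RNAi) tails, they fell into groups of 99, 19, 14, 13, 3 and 2, given here as a description. The same unc22(RNAi) tails are the controls of the weekly differences in tails. The grouping and those differences are therefore not independent, and where the calls fell among the groups was not tested. All 20 contigs lower in tails at week 5 were in the group of 99, whose median difference was -0.23 at week 5 in tails and -0.37 at week 3 in heads. The group of 14, which holds dd_14391, Wnt11-2 and Frz-d, had medians of -0.02 at week 2 in tails and 0.13, 0.13 and 0.21 at weeks 3, 4 and 5. The group of 19, with dd_4427, dd_13065 and GUCY1B2, had a median of 0.17 at week 5 in tails. The 12 contigs higher in tails at week 5 comprised 6 of the group of 19, 5 of the group of 14 and 1 of the group of 99.

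**Figure D5:**
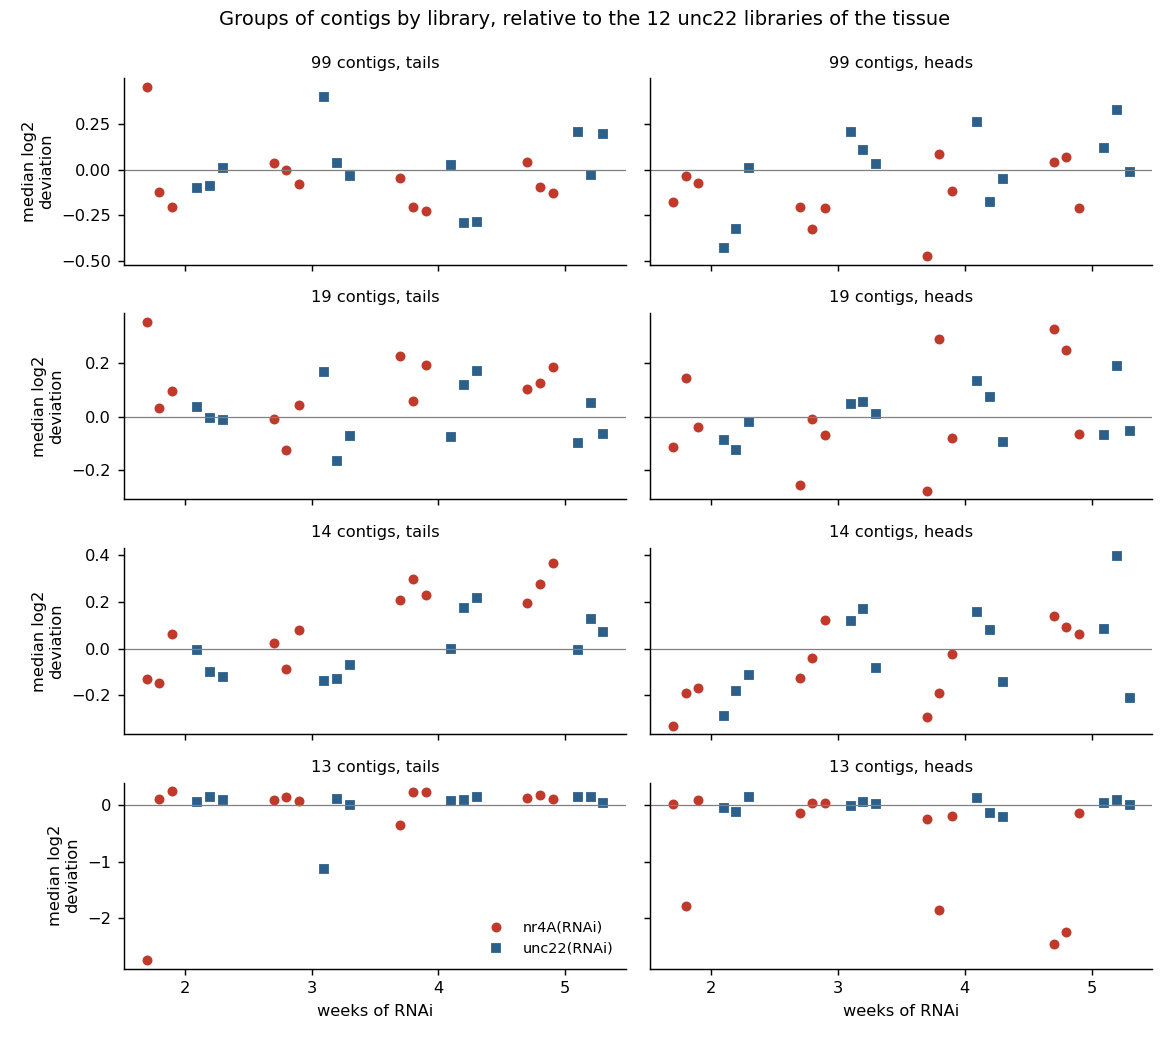
Median log2 deviation of the 4 larger groups of contigs in each library (points) relative to the mean of the 12 unc22(RNAi) libraries of the tissue, by week, for tails (left) and heads (right), nr4A(RNAi) in red circles and unc22(RNAi) in blue squares. In the group of 13, 6 libraries lie more than 1 below the unc22(RNAi) mean and the other 42 lie between -0.36 and 0.24.

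In the group of 13, single libraries were low. Its members are dd_13735, dd_1636, dd_451, dd_26988, dd_15981, dd_26589, dd_447, dd_15304, dd_13700, dd_9667, dd_9287, dd_5531 and dd_2548, named after their values were seen. The group's median was far below the control mean in nr4A(RNAi) tail replicate 1 of week 2 (-2.74), in nr4A(RNAi) head replicates 2 of week 2 (-1.79), 2 of week 4 (-1.86), 1 of week 5 (-2.45) and 2 of week 5 (-2.24), and in unc22(RNAi) tail replicate 1 of week 3 (-1.13). dd_1636 had 10.1, 271 and 299 CPM in nr4A(RNAi) tails at week 2, against 288, 375 and 291 CPM in unc22(RNAi) tails, and 0.111, 0.867 and 13.7 CPM in nr4A(RNAi) heads at week 5, against 14.2, 14.1 and 13.3 CPM in unc22(RNAi) heads. dd_451 had 58.1, 1298 and 1497 CPM in nr4A(RNAi) tails at week 2 and 1331, 1408 and 1304 CPM in unc22(RNAi) tails. In both contigs the low values belonged to 1 or 2 libraries of a group of 3. Of these 6 libraries, nr4A(RNAi) tail replicate 1 of week 2 and head replicates 2 of week 2, 2 of week 4 and 1 of week 5 also stood apart over all contigs. No contig of the group passed in tails in any week, and its median in heads at week 5 was -1.60, which rests on 2 of the 3 nr4A(RNAi) libraries.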

How the data were processed

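RNA of heads and tails was sequenced from TruSeq V2 libraries, and per the labels the reads were handled with CASAVA 1.7.0, Trimmomatic 0.32 and Bowtie against the dd_Smed_v4 transcriptome. The authors deposited 2 tables of raw read counts, of 26566 rows for heads and 38633 for tails. Their 2 tables of DESeq comparisons (fold changes and p-values) were not used. Isoform rows were summed by contig number, and 4 head rows that are no contig, with 12.4 to 18.8% of the counts, were left out. CPM was computed on each library's total.

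The contigs, gene lists and tests were chosen with earlier results of these data known. Each comparison was fitted on all contigs in R 4.3.3 with edgeR 4.0.16 (TMM, filterByExpr with a minimum count of 10 and a total of 15, quasi-likelihood F test, Benjamini-Hochberg adjustment, threshold 0.05): 6 libraries of a week and tissue, 24 of a tissue with 8 group means for the mean of the weeks and for week 5 minus week 2, and 48 for nr4A(RNAi) tails minus heads. Contigs were grouped by average linkage on correlations. The steps were tested on simulated counts. Replicates are libraries of separately pooled animals, so p-values measure the spread between such pools. Replicate numbers were checked for pairing: 12 of 24 same-numbered pairs had deviations correlated above 0.1 (r -0.38 to 0.39), every pair did in tails at week 5 and heads at week 2, and 13 of 24 correlated best with their own number.

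Named contigs are those with a name, the 5 most tail-enriched, the 3 inside and 3 outside the limit, the 3 of highest level, per tissue the 5 most negative and 5 most positive over the weeks with 1 sign in all 4 weeks among those past the threshold, those past it in 2 or more weeks, the extremes of week 5 minus week 2, and every member of a count of 5 or fewer. Alternatives were DESeq2 size factors, no filter, DESeq2 1.42.0, each replicate left out, a replicate block, 24 libraries in 1 fit, and other choices of the contigs (a minimum of 1 CPM, log2(CPM + 5), without a week's controls, 1 isoform row). Counts limit precision in heads most, where many contigs are at a few CPM.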

Additional observations from a re-analysis of the deposited data

Results flagged for a closer look

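In 4 cases the difference between nr4A(RNAi) and unc22(RNAi) was itself different at weeks 5 and 2 (edgeR quasi-likelihood test of the week 5 minus week 2 difference, adjusted over all contigs). In tails it was -2.15 on the log2 scale for dd_33 (SE 0.39, adjusted p = 0.038), with a difference of -1.77 at week 5 and 0.38 at week 2. For dd_79 in tails it was -1.97 (SE 0.33, adjusted p = 0.024), with -1.81 at week 5 and 0.15 at week 2. For dd_7272 in tails it was -1.64 (SE 0.22, adjusted p = 0.0015), with -1.92 at week 5 and -0.28 at week 2. In heads it was -0.83 for dd_659 (SE 0.14, adjusted p = 0.011), with -0.81 at week 5 and 0.02 at week 2, and this call was lost without nr4A(RNAi) replicate 1 and without unc22(RNAi) replicate 1 or 2. For dd_33, dd_79 and dd_7272 the unc22(RNAi) tails were higher at week 5 than at week 2 in 3 of 3 libraries.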

How the results depend on the processing

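No called value of a named contig changed sign, and 19 values of 10 uncalled differences did (-0.11 to 0.17). Of the alternatives for the named contigs 301 kept their side of the threshold, 49 lost a call and 2 gained one. With 24 libraries in 1 fit, the contigs called were 1 at week 2 and 8 at week 5 in tails, and 0, 4 and 20 at weeks 3, 4 and 5 in heads. DESeq2 gave 4, 4 and 12 at weeks 3, 4 and 5 in heads and 5 for week 5 minus week 2 in tails. At week 3 in heads DESeq2 gave no adjusted p to some contigs that edgeR called. Contigs chosen on log2(CPM + 5), of which 102 are among the 150, gave 51 at week 3 in heads. Without the libraries that stood apart, an alternative chosen after seeing the data, the mean of the weeks gave 22 in tails and 52 in heads, and week 5 minus week 2 gave 17 in heads. With 1 replicate left out, in tails the counts ran between 0 and 3 at week 2, 0 and 3 at week 3, 2 and 5 at week 4, 11 and 51 at week 5, 4 and 35 for the mean and 0 and 4 for week 5 minus week 2. In heads they were 0 at week 2 and ran between 16 and 27 at week 3, 0 and 10 at week 4, 0 and 60 at week 5, 13 and 49 for the mean and 0 and 12 for week 5 minus week 2, and nr4A(RNAi) tails over heads stayed at 150. The cause of these changes was not tested. With the replicate block the counts were 5 at week 4 and 61 at week 5 in tails, 7 and 21 for the mean in tails and heads, and 1 and 0 for week 5 minus week 2.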
